A study of Mus musculus with 4 samples.

Results

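The genes described here are the 9 that make, hold and break down retinoic acid in cultured primary mouse hepatocytes taken through a stepwise protocol toward insulin-producing cells. They were taken by gene name from the deposited read count table: Lrat, Dhrs3, Aldh1a1, Aldh1a2, Aldh1a3, Crabp1, Crabp2, Cyp26a1 and Cyp26b1, 9 of its 30138 entries. Each of the 4 stages was sequenced as 1 library of total RNA. S0 was the hepatocyte culture in serum-free medium with knockout serum, B-27, N-2 and 20 ng/ml each of the growth factors bFGF and EGF. S1 followed the DNA methylation inhibitor 5-azacytidine for 48 h, at a dose the labels print as 5 mM, and then 24 h of 100 nM trichostatin A, which inhibits histone deacetylases. S2 came after the S1 steps and 7 days of retinoic acid, at a dose the labels print as 2 mM, with the ITS supplement. S3 followed 7 further days with nicotinamide at 10 mM in medium free of both growth factors, and the labels name no retinoic acid for it. B-27 is sold with and without vitamin A, and the labels do not say which form the cells received. The labels give neither the strain, age or number of the mice nor how the hepatocytes were purified.

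Retinol, or vitamin A, is stored as retinyl ester and is oxidised to retinaldehyde and then, irreversibly, to retinoic acid. Retinoic acid binds nuclear receptors that act on response elements in the DNA, and among the genes known to respond are those whose products remove it or its precursors. The liver is the main store of vitamin A in the body, and most of that store lies in stellate cells and not in hepatocytes.

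The S0, S1, S2 and S3 libraries held 27602967, 26655887, 22944047 and 23633176 reads in genes. Levels are given in CPM, a gene's reads as a share of the TMM-scaled library total, and levels of different genes are compared in the authors' deposited RPKM, which also divides by gene length. Where a library had 0 reads of a gene, 3 reads stood in as its floor, equal to 0.112 CPM in S0 and 0.137 CPM in S2. The ratio is then taken against that floor, and its 95% limit can lie nearer to no change. A gene was called higher or lower in a comparison when the whole 95% interval of its ratio (exact Clopper-Pearson, given in parentheses) lay beyond 2-fold. The intervals cover counting error only. With 1 library per stage no difference has a replicate check, and a difference between stages cannot be told apart from a difference between cultures or libraries. All 9 genes passed the filter of 1 CPM in any library, as did 15222 genes in all, but Crabp1 did so in S1 alone, so its direction against S1 was fixed by that filter.

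The labelled cell type was checked against marker genes. The summed level of 16 hepatocyte markers was 3693, 4155, 12627 and 6475 CPM in S0 to S3, and that of 14 macrophage markers was 14178, 3386, 727 and 707 CPM. The macrophage sum was thus the higher in S0 alone, but single genes weighed heavily in both sums. Apob made up 3151, 1439, 3690 and 2355 CPM of the hepatocyte sum, and Alb 234, 1724, 7171 and 3569 CPM. Lyz2 made up 8936, 2429, 545 and 520 CPM of the macrophage sum. The order of the sums in S1 depends on such genes. In S0 Alb, the hepatocyte product albumin, took 0.0226% of the reads and Lyz2, the macrophage lysozyme, 0.865%. The hepatocyte marker Tat had 0 reads at every stage and Cyp2e1 had 1 or 2, while Hnf4a and Apob were present throughout. Mesothelial markers summed to 2957, 4880, 4805 and 3937 CPM in S0 to S3, of which Krt8 made up 1692, 3308, 2457 and 1539 CPM. In RNA from a mixed culture, fewer cells of a type and less RNA per cell cannot be told apart.

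**Figure D1:**
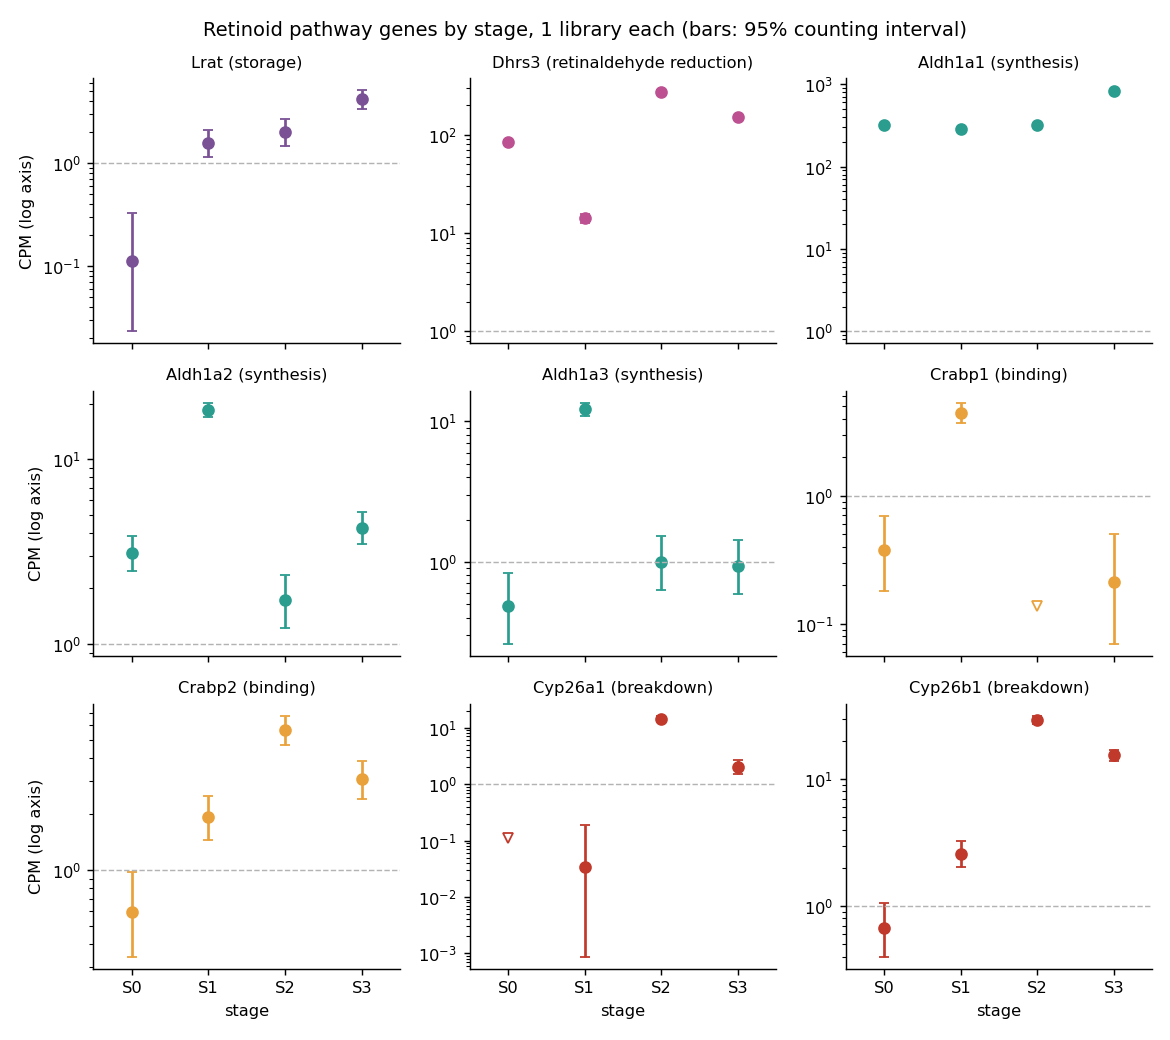
Level of each of the 9 genes in S0, S1, S2 and S3 (CPM, log axis), 1 library per stage, with 95% counting intervals as bars, coloured by role. Open triangles stand at the floor of 3 reads where a library had 0 reads, and the dashed line is 1 CPM. Dhrs3, Crabp2, Cyp26a1 and Cyp26b1 were highest in S2, Aldh1a2, Aldh1a3 and Crabp1 in S1, and Lrat and Aldh1a1 in S3.

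The 9 genes fell into 3 groups by the stage of their highest level. The retinoic acid hydroxylases Cyp26a1 and Cyp26b1, the retinaldehyde reductase Dhrs3 and the binding protein gene Crabp2 were highest in S2, after retinoic acid. The synthesis genes Aldh1a2 and Aldh1a3 and the binding protein gene Crabp1 were highest in S1, after both inhibitors. Lrat and the synthesis gene Aldh1a1 were highest in S3, and none was highest in S0.

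The breakdown genes described here encode 2 hydroxylases of the CYP26 family, which turn retinoic acid into more polar products. Breakdown itself was not measured, and further enzymes that can oxidise retinoic acid are described below. Cyp26a1 (ENSMUSG00000024987, chromosome 19) had 0, 1, 320 and 48 reads in S0 to S3, which is 0, 0.0344, 14.6 and 2.05 CPM. It was thus at or under the floor before retinoic acid and well above it afterwards. Cyp26a1 was 423-fold higher in S2 than in S1 (75.4 to 16763), with the width set by the single read in S1. Against the floor in S0 it was 130-fold higher in S2, with a lower 95% limit of 105-fold. In S3 it fell 7.11-fold relative to S2 (5.24 to 9.84). It was still 18.2-fold above the floor in S0, with a lower 95% limit of 14.3-fold. No ratio is given for S1 over S0, where both libraries held 1 read or fewer.

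Cyp26b1 (ENSMUSG00000063415, chromosome 6) had 18, 75, 641 and 361 reads in S0 to S3, or 0.674, 2.58, 29.2 and 15.4 CPM. Unlike Cyp26a1 it was above the floor of 3 reads before retinoic acid, though under 1 CPM in S0, and it was called at both of the early steps. It rose 3.83-fold in S1 over S0 (2.27 to 6.82), a call lost with a 99% interval, and 11.3-fold in S2 over S1 (8.89 to 14.6). In S3 it stood 1.89-fold below S2 (1.66 to 2.16), which did not pass the 2-fold rule, and it was 22.9-fold higher than in S0 (14.3 to 39.0).

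The 2 hydroxylases differed in how far they came down in S3. A ratio of ratios taken directly on the reads, which needs no scaling between libraries, put the S3 over S2 ratio of Cyp26a1 3.75-fold below that of Cyp26b1 (2.68 to 5.33) and 3.88-fold below that of Dhrs3 (2.85 to 5.39). For Dhrs3 against Cyp26b1 the same measure was 1.03-fold (0.902 to 1.19). These pairs were chosen after their values were seen. Per length, Cyp26a1 made up 0%, 3.27%, 55.9% and 25.2% of the summed RPKM of both hydroxylases in S0 to S3. Their summed RPKM was 0.0526, 0.2345, 5.13 and 1.63 in S0 to S3. Cyp26c1, the third gene of the family and the neighbour of Cyp26a1 on the chromosome, had 5, 4, 1 and 6 reads.

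The promoter of Cyp26a1 is shown because the gene had 320 reads in S2, against 1 in S1. Retinoid receptor pairs bind direct repeats of a short hexamer, and the windows from 250 bases before to 50 bases after annotated starts (RefSeq, GRCm38.p6) were searched on both strands for the hexamers AGGTCA or AGTTCA or GGGTCA or GGTTCA repeated in the same direction with 1, 2 or 5 bases between. Of the 9 genes, 7 had windows in the table, and Aldh1a3 and Crabp2 did not. The window of Cyp26a1 lies at chr19:37697558-37697857 on the plus strand, and capitals mark its repeat with 5 bases between. Beside it stands the stretch around the repeat of Rarb, a retinoic acid receptor gene and known target, from the window chr14:16575427-16575726 on the minus strand.
Cyp26a1: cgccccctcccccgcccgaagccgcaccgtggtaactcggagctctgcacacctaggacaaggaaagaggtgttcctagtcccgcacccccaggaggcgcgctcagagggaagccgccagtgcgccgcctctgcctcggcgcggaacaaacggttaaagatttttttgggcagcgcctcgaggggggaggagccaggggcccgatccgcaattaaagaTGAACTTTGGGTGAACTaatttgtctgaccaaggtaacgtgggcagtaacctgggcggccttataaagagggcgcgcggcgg
Rarb: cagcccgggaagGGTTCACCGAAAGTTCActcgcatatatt
The Cyp26a1 repeat, read on the strand opposite to the gene as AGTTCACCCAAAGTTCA, spans 32 to 16 bases before the annotated start. The Rarb repeat, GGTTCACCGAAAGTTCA, spans 53 to 37 bases before its start on the strand of the gene. Repeats with 5 bases between were in 32 of 32851 windows (0.0974%), those with 1 base between in 0.222% and those with 2 in 0.268%. A match is a description of these letters and not evidence of binding. Rarb itself had 13.9, 16.9, 102 and 54.7 CPM in S0 to S3 and rose 6.02-fold in S2 over S1 (5.46 to 6.65).

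No such repeat was found in the windows of the other members. Those of Cyp26b1 (chr6:84593761-84594060, minus strand) and of the upstream start of Dhrs3 (chr4:144892577-144892876, plus strand) are given in full, since both genes rose over the same step as Cyp26a1. They hold none of the 4 hexamers, so nothing is capitalised.
Cyp26b1: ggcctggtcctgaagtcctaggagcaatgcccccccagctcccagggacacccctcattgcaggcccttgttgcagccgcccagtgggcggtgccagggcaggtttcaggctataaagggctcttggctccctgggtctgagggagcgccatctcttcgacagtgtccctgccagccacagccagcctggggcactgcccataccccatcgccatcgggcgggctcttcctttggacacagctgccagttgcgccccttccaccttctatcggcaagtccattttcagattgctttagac
Dhrs3: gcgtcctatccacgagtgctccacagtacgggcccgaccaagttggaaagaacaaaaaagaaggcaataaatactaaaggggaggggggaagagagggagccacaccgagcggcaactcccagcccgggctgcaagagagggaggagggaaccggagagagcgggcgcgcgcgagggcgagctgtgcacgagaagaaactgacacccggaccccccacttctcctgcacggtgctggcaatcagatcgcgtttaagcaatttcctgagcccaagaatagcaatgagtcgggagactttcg
Single hexamers occurred in 43.7% of all windows, and response elements farther from the start were not searched.

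Dhrs3 (ENSMUSG00000066026, chromosome 4), which reduces retinaldehyde back to retinol and so lowers the supply for synthesis, had 2272, 410, 6056 and 3528 reads in S0 to S3. Its levels were 85.1, 14.1, 276 and 151 CPM, lowest in S1 and highest in S2. It fell 6.02-fold in S1 over S0 (5.42 to 6.71) and rose 19.5-fold in S2 over S1 (17.7 to 21.6), ending 3.24-fold above S0 (3.09 to 3.4). It was the only one of the 9 genes called lower in S1 than in S0. The S3 level was 1.83-fold below S2 (1.76 to 1.91) and 1.77-fold above S0 (1.68 to 1.87), neither of which passed the 2-fold rule. Over S2 against S1 its ratio was 1.73-fold above that of Cyp26b1 (1.32 to 2.25). In the RefSeq annotation Dhrs3 overlaps Vps13d, whose level was 160 to 226 CPM without the fall in S1. The sources used here do not say whether counting used the strand.

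**Figure D2:**
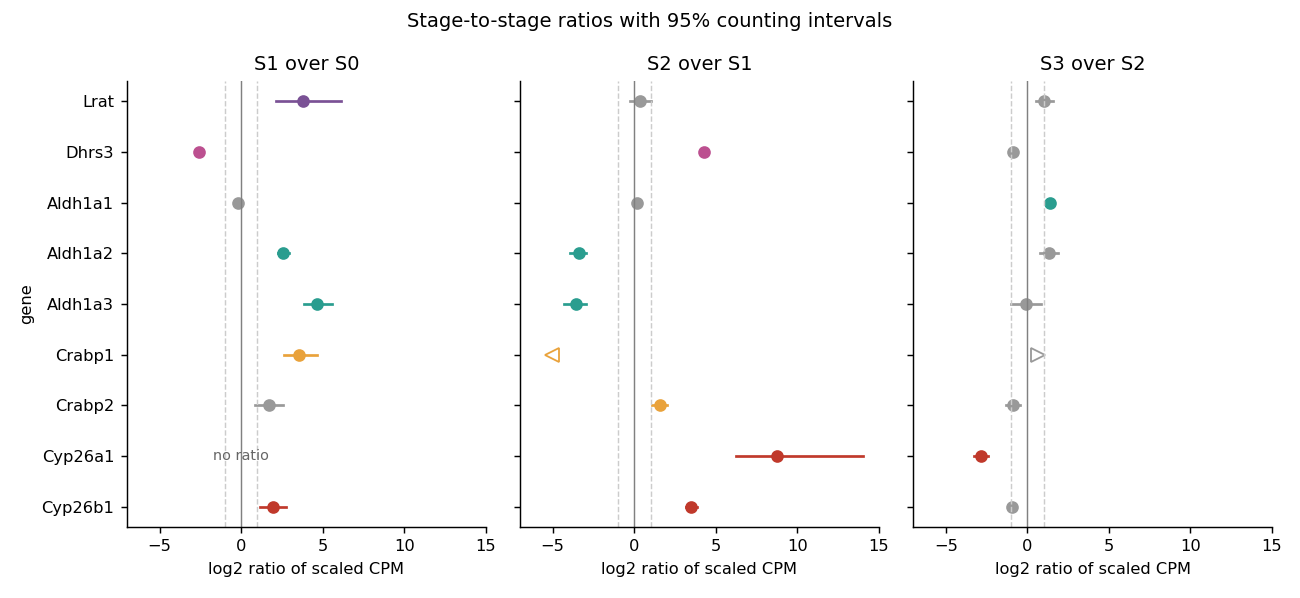
Log2 ratio of scaled CPM of the 9 genes in S1 over S0, S2 over S1 and S3 over S2, with 95% counting intervals. Coloured points passed the rule of a whole interval beyond 2-fold (dashed lines) and grey ones did not. Open triangles are ratios against the floor, drawn without their intervals, and Cyp26a1 has no ratio in S1 over S0. Aldh1a2, Aldh1a3 and Crabp1 lie right of the lines in S1 over S0 and left of them in S2 over S1, while Dhrs3 does the opposite.

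Synthesis of retinoic acid from retinaldehyde is the work of 3 aldehyde dehydrogenases. Aldh1a1 (ENSMUSG00000053279, chromosome 19) was the most abundant of the 9 genes at every stage, with 321, 284, 317 and 827 CPM in S0 to S3 (8575, 8254, 6955 and 19363 reads). It was nearly level over the first 3 stages and stood apart in S3. It rose 2.61-fold in S3 over S2 (2.54 to 2.68) and 2.58-fold over S0 (2.51 to 2.64). The S1 over S0 ratio was 1.13-fold lower (1.1 to 1.16) and turned to higher when libraries were scaled by nuclear protein-coding reads. The S2 over S1 ratio was 1.11-fold higher (1.08 to 1.15) and turned to lower with that scaling and with library totals.

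Aldh1a2 (ENSMUSG00000013584, chromosome 9), the main synthesis enzyme of the embryo and also a gene of mesothelial cells, had 83, 537, 38 and 100 reads, or 3.11, 18.5, 1.73 and 4.27 CPM in S0 to S3. Aldh1a3 (ENSMUSG00000015134, chromosome 7) had 13, 353, 22 and 22 reads, or 0.487, 12.2, 1 and 0.939 CPM. Both were high in S1 alone. In S1 over S0 Aldh1a3 rose 25.0-fold (14.4 to 47.4) and Aldh1a2 5.95-fold (4.72 to 7.59), and the ratio of Aldh1a3 was 4.19-fold above that of Aldh1a2 (2.28 to 8.33). In S2 over S1 Aldh1a3 fell 12.1-fold (7.89 to 19.6) and Aldh1a2 10.7-fold (7.69 to 15.3). Against S0, the S2 level was 1.8-fold lower for Aldh1a2 (1.21 to 2.71) and 2.06-fold higher for Aldh1a3 (0.992 to 4.45), and neither was called. In S3 over S2 Aldh1a2 was 2.47-fold higher (1.68 to 3.69), which was not called either.

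Per length, Aldh1a1 remained the main transcript of the 3 throughout. It made up 99.04%, 92.2%, 99.3% and 99.5% of their summed RPKM in S0 to S3, even where Aldh1a2 reached 5.44% and Aldh1a3 2.35% in S1. The summed RPKM of the 3 was 55.4, 59.3, 54.1 and 144 in S0 to S3. Set against the summed RPKM of Cyp26a1 and Cyp26b1, the synthesis transcripts were 1053 times as high in S0, 253 times in S1, 10.6 times in S2 and 88.3 times in S3. These ratios carry no interval, and that of S0 is imprecise, since it rests on 18 reads of Cyp26b1 and 0 of Cyp26a1. The narrowest ratio in S2 came with 5.13 RPKM of the hydroxylases and nearly the same synthesis level as S0. These are transcript levels, and no retinoid and no enzyme activity was measured.

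Aldh1a7 (ENSMUSG00000024747) lies next to Aldh1a1 and is its close paralog, so reads of the pair could have been shared or split in counting. Its levels were 4.61, 35.3, 19.8 and 14.0 CPM in S0 to S3, highest in S1, while Aldh1a1 was nearly level over S0, S1 and S2. In S1 over S0 its ratio was 8.65-fold above that of Aldh1a1 (7.15 to 10.5), and in S3 over S2 the ratio of Aldh1a1 was 3.7-fold above that of Aldh1a7 (3.19 to 4.3). The last 120 bases of both windows, 70 before and 50 after the annotated start (Aldh1a1 within chr19:20601718-20602017, plus strand, and Aldh1a7 within chr19:20727507-20727806, minus strand), are shown because they were 95.8% identical while the levels diverged. Capitals mark the 5 bases that differ.
Aldh1a1: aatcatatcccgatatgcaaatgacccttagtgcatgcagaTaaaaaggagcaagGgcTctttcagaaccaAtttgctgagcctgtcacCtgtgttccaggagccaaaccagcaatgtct
Aldh1a7: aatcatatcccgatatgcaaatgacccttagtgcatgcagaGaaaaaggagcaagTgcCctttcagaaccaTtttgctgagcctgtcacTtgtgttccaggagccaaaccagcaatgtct

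**Figure D3:**
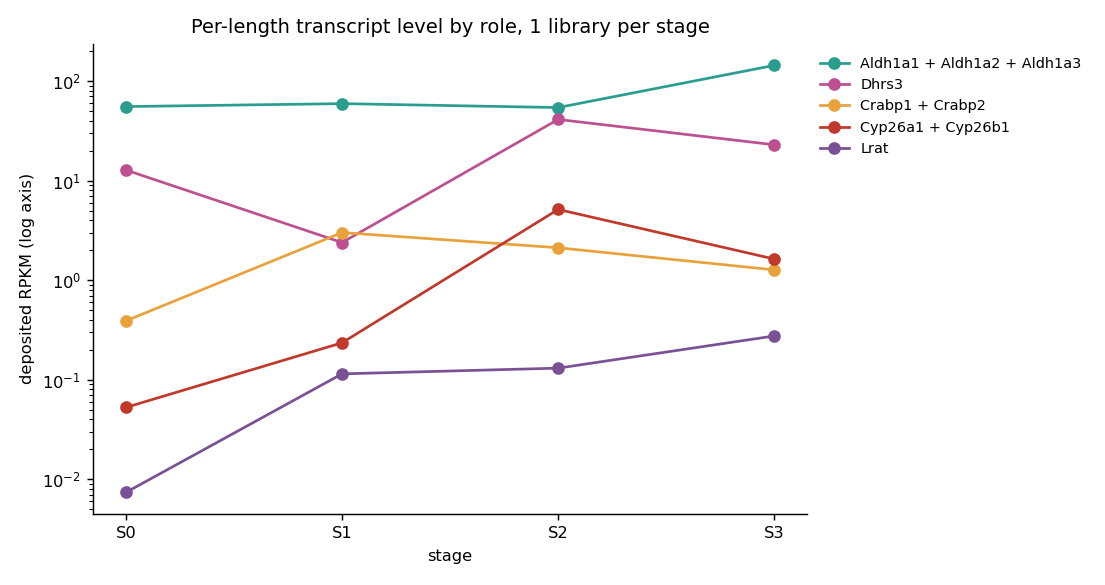
Summed deposited RPKM by role in S0 to S3 (log axis), 1 library per stage: the 3 synthesis enzymes, Dhrs3, both binding proteins, both hydroxylases and Lrat. The hydroxylases stand at 5.13 RPKM in S2, against 0.0526 in S0, while the synthesis enzymes stand at 54.1 and 55.4.

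The cellular retinoic acid binding proteins carry retinoic acid in the cytosol, CRABP2 toward the nuclear receptors and CRABP1 toward the CYP26 enzymes. Their genes moved in different steps. Crabp1 (ENSMUSG00000032291, chromosome 9) had 10, 129, 0 and 5 reads in S0 to S3, or 0.374, 4.44, 0 and 0.213 CPM. It rose 11.9-fold in S1 over S0 (6.25 to 25.3). With the floor standing in for S2, it fell 32.5-fold in S2 over S1, with a lower 95% limit of 26.1-fold. Crabp2 (ENSMUSG00000004885, chromosome 3) had 16, 56, 124 and 72 reads, or 0.599, 1.93, 5.65 and 3.07 CPM, with the highest value in S2. Crabp2 was 3.22-fold higher in S1 than in S0 (1.82 to 6.01), which was not called, and it rose 2.93-fold in S2 over S1 (2.12 to 4.09) and 9.43-fold in S2 over S0 (5.58 to 17.0). With library totals in place of TMM scaling the calls changed places: S1 over S0 passed (log2 ratio 1.86) and S2 over S1 did not (1.36). In S3 over S2 it was 1.84-fold lower (1.36 to 2.49), which was not called. Per length, Crabp1 made up 42.05%, 72.8%, 0% and 7.46% of the summed RPKM of the pair in S0 to S3.

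Aldh1a2 and Crabp1 had the most similar profiles of any pair of the 9 genes, with a root mean square distance of 0.31 between their centred log2(CPM + 0.5) levels over the 4 stages. The S1 peak of Crabp1 was fixed by the filter. Their promoter windows are shown because both genes rose in S1 over S0, a step that combined an inhibitor of DNA methylation with trichostatin A. Each CG, the site at which mammalian DNA is methylated, is in capitals. That of Crabp1 lies at chr9:54764498-54764797 and that of Aldh1a2 at chr9:71215539-71215838, both on the plus strand.
Crabp1: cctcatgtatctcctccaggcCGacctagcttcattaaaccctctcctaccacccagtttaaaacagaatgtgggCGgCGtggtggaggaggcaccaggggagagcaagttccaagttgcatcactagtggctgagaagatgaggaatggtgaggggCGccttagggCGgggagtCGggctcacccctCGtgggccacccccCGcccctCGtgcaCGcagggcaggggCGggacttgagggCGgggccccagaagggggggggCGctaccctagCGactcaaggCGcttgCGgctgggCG
Aldh1a2: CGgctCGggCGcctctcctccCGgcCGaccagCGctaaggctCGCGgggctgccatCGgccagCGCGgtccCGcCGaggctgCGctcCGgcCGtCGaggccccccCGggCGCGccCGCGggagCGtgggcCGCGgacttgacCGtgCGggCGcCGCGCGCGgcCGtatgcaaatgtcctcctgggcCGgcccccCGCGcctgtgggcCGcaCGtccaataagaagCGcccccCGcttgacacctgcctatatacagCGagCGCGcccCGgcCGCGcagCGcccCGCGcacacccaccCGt
The Aldh1a2 window held 50 CG sites and the Crabp1 window 17, against a median of 7 over all windows. The Lrat window held 21, that of Cyp26b1 9, that of Cyp26a1 26, the 3 of Dhrs3 21, 10 and 9, and those of Aldh1a1 3 and 1. The observed over expected CG ratio was 1.11 for Aldh1a2 and 0.543 for Crabp1, against a median of 0.384 over all windows. It was 0.777 for Lrat and 0.314 for Cyp26b1, which were also called higher in that step. For the 3 windows of Dhrs3, which fell in that step, it was 0.824, 0.675 and 0.594. Cyp26a1 had 0.894, and both windows of Aldh1a1 had 0.213 and 0.0604. Methylation was not measured.

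Lrat (ENSMUSG00000028003, chromosome 3), which esterifies retinol for storage, had 3, 45, 44 and 97 reads in S0 to S3, or 0.112, 1.55, 2 and 4.14 CPM. Its lowest value was in S0 and its highest in S3. It rose 13.8-fold in S1 over S0 (4.43 to 69.4) and 36.9-fold in S3 over S0 (12.3 to 182). The S2 over S1 ratio was 1.29-fold higher (0.834 to 2) and the S3 over S2 ratio 2.07-fold higher (1.43 to 3.02), and neither was called. Per length Lrat reached no more than 0.275 RPKM at any stage. Rbm46os, a long non-coding RNA gene that overlaps Lrat in the RefSeq annotation, had 1 to 8 reads.

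Counted together, 5 of the 9 genes were higher in S1 than in S0 and 1 was lower, where 12.6% of all genes tested were higher and 13.1% lower. The median log2 ratio of the 8 genes with a ratio was 2.26, against -0.03 over all genes. In S2 over S1, 4 were higher and 3 lower, where 6.71% of all genes were higher and 10.1% lower, and the median was 0.37, against 0.01 over all genes. In S3 over S2, 1 was higher (Aldh1a1) and 1 lower (Cyp26a1), where 3.69% of all genes were higher and 1.14% lower, and the median was -0.09, against 0.01. In S2 over S0, 5 were higher and 0 lower, where 9.05% of all genes were higher and 11.5% lower. In S3 over S0, 5 were higher and 0 lower, where 9.2% of all genes were higher and 10.5% lower. The comparisons share libraries, so S1 enters both the rise and the fall of Aldh1a2, Aldh1a3 and Crabp1. Crabp1 is among the 5 higher in S1 over S0 and the 3 lower in S2 over S1. It passed the filter through S1 alone, so its direction in both comparisons was fixed. The split of all called genes moved with scaling, to 2407 higher and 1579 lower in S1 over S0 with nuclear protein-coding totals (1915 and 1989 with TMM), and to 711 higher and 1911 lower in S2 over S1 with library totals (1021 and 1542 with TMM).

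Marker lists of other cells moved over the same steps. Of all genes tested, 12.6% were higher and 13.1% lower in S1 over S0, 6.71% and 10.1% in S2 over S1, and 3.69% and 1.14% in S3 over S2. In S2 over S0 the shares were 9.05% and 11.5%, and in S3 over S0 9.2% and 10.5%. Of 16 listed neural markers 11 were measured, but 5 of these (Elavl3, Gap43, Snap25, Syp and Syt1) reached 1 CPM in S1 alone, which fixed their direction. Of the 6 others, 6 were higher in S1 than in S0 and 5 lower in S2 than in S1. The summed level of all 16 listed neural markers, the 5 with a fixed direction included, was 17.8, 261, 24.9 and 33.4 CPM in S0 to S3. This sum was highest in S1, as for Aldh1a2, Aldh1a3 and Crabp1. Sox2 had 0 reads in S0, S2 and S3. Of 11 measured hepatocyte markers, 7 were higher and 1 lower in S2 over S1, and 0 were higher and 8 lower in S3 over S2, with sums of 3693, 4155, 12627 and 6475 CPM, highest in S2 as for Cyp26a1, Cyp26b1, Dhrs3 and Crabp2. In S3 over S2, the step in which Aldh1a1 rose, 7 of 12 mesothelial markers were higher and 1 lower, and Muc16 among the 7 reached 1 CPM in S3 alone. Against S0, 8 of the 12 were higher in S3, Muc16 again among them, and 1 was lower. Of 15 measured stellate cell markers, 5 were higher and 3 lower in S1 over S0, 6 and 3 in S2 over S0, and 7 and 3 in S3 over S0 (median log2 ratio 1.32), the comparisons in which Lrat was called higher. Of the 5 in S1 over S0, Ngfr, Rgs5 and Vipr1 reached 1 CPM in S1 alone. The 7 higher in S3 over S0 were Reln, Pdgfrb, Pdgfra, Hand2, Colec11, Lhx2 and Dcn, and the 3 lower were Des, Nes and Acta2. The summed stellate level was 5278, 1569, 1560 and 2073 CPM in S0 to S3, of which Acta2 made up 3895, 534, 212 and 340 CPM. Gfap had 1 to 6 reads at every stage. In S2 over S1, 2 stellate cell markers were higher and 6 lower, with Ngfr, Rgs5 and Vipr1 among the 6. In S3 over S2, 3 stellate cell markers were higher and 0 lower. Of 14 macrophage markers, 10 were lower and 2 higher in S1 over S0. Biliary sums were 1579, 1592, 593 and 622 CPM, of which Spp1 made up 1117, 1276, 403 and 282 CPM. Endothelial sums were 711.5, 112.5, 115 and 119 CPM, of which Stab1 made up 628, 31.8, 4.78 and 7.04 CPM. The fall of the endothelial sum in S1 was thus mostly that of Stab1. The part of these cells in the levels of the 9 genes was not tested.

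**Figure D4:**
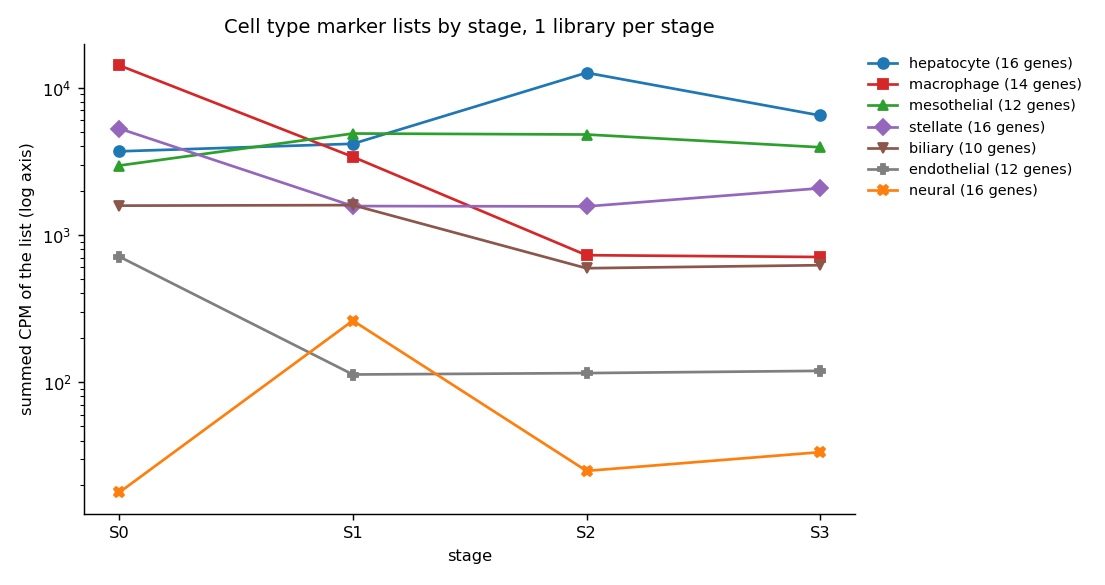
Summed CPM of 7 lists of cell type markers in S0 to S3 (log axis), 1 library per stage. The macrophage list stands at 727 CPM in S2 and 14178 CPM in S0, the hepatocyte list at 12627 CPM in S2 and 3693 CPM in S0, and the neural list peaks at 261 CPM in S1.

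Genes whose profile over the 4 stages was nearest to each member were taken by the root mean square distance of centred log2(CPM + 0.5) levels among 15221 other genes. Cyp26a1 had no other gene within 0.5, and the nearest were Cyp2a5 (0.52), Medag (0.57) and Ogn (0.7). For Cyp26b1, with 14 genes within 0.5, they were Cpb2 (0.26), Cyp2a5 (0.27) and Akr1c19 (0.31). Dhrs3 had 4 genes within 0.5, of which Emilin1 (0.35), 9030622O22Rik (0.43) and Hsd17b2 (0.43) were nearest. For Crabp2 the nearest was Afp, the fetal liver gene alpha-fetoprotein (0.05), with 1073, 2270, 6283 and 3615 CPM in S0 to S3, then Prnp (0.09) and Zfp521 (0.1). Lrat was nearest to Irx2 (0.05), Fgfbp1 (0.09) and an unannotated long non-coding transcript (0.11), and Aldh1a1 to Rep15 (0.06), Muc15 (0.07) and Vnn1 (0.07). Aldh1a2 was nearest to 1700003E16Rik (0.14), Wnt7b (0.15) and B4galnt4 (0.16), Aldh1a3 to Fam131c (0.13), Lppr4 (0.13) and Usp44 (0.14), and Crabp1 to Tcp11x2 (0.1), Pcp4l1 (0.11) and Celsr3 (0.16). Only 4 points enter each distance, and the pseudocount weighs on low genes such as Crabp2, with 0.599 CPM in S0. With a pseudocount of 1 in place of 0.5, none of the 3 nearest stayed for Crabp2, Afp included, or for Lrat. For Aldh1a2, Aldh1a3 and Crabp1, 1 each stayed.

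The rest of the retinoid pathway was described in 5 further lists, whose counts and medians stand beside those of all genes tested. Of all genes, 12.6% were higher and 13.1% lower in S1 over S0, with a median log2 ratio of -0.03. In S2 over S1, 6.71% were higher and 10.1% lower (median 0.01). In S3 over S2, 3.69% were higher and 1.14% lower (median 0.01). Of 14 measured genes for retinol carriers and storage, 3 were higher and 1 lower in S1 over S0, 2 higher and 1 lower in S2 over S1, and 1 higher and 1 lower in S3 over S2, with medians of -0.06, 0.28 and 0.22 on the log2 scale. The 1 lower in S2 over S1 became 3 with library totals or nuclear protein-coding totals and 2 with DESeq2 size factors, against 2 higher with library totals. Rbp4, the plasma carrier of retinol, rose 2.81-fold in S1 over S0 (2.5 to 3.16) and Ttr, its partner in plasma, 12.01-fold in S2 over S1 (11.2 to 12.9). Bco1, which cleaves beta-carotene to retinaldehyde, had 49.3, 108, 28.4 and 19.4 CPM, higher in S1 than in S0 and 3.81-fold lower in S2 than in S1 (3.49 to 4.16). Stra6l, a receptor for the retinol carrier, fell 19.0-fold in S1 over S0 (9.39 to 44.9) and rose 5.97-fold in S3 over S2 (3.66 to 10.3). Ces1d, a retinyl ester hydrolase of a family with close paralogs, rose at each of the first 2 steps (5.21-fold against the floor in S0, then 4.67-fold).

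Of 15 measured retinol and retinaldehyde oxidoreductases, 5 were higher and 1 lower in S1 over S0, 3 higher and 2 lower in S2 over S1, and 0 higher and 2 lower in S3 over S2 (median log2 ratios 0.56, 0.32 and -0.23). Rdh10, the main retinol dehydrogenase of the embryo, had 156, 131, 124.5 and 57.5 CPM and fell 2.17-fold in S3 over S2 (2.03 to 2.31), a call lost with library totals. Adh1, an alcohol dehydrogenase that oxidises retinol, rose 12.1-fold in S2 over S1 (8.15 to 18.8) and fell 8.53-fold in S3 over S2 (5.86 to 12.8). Dhrs9 and Rdh12 were higher in S1 than in S0 and fell 7.39-fold (6.27 to 8.76) and 9.94-fold (4.64 to 25.4) in S2 over S1, and Rdh12 reached 1 CPM in S1 alone, so that its direction was fixed. Dhrs4, a retinal reductase, fell 3.38-fold in S1 over S0 (2.8 to 4.11) and rose 4.75-fold in S2 over S1 (3.94 to 5.75), the same order of steps as Dhrs3.

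Of 5 further enzymes that can oxidise retinoic acid, 3 were measured, with 2 higher in S1 over S0, 1 lower in S2 over S1 and 2 lower in S3 over S2. Cyp3a13 had 31.6, 155, 157 and 25.8 CPM and Cyp3a11 5.32, 23.01, 43.1 and 7.26 CPM. In S3 over S2 they fell 6.08-fold (5.57 to 6.64) and 5.94-fold (5.04 to 7.04), and reads of CYP3A paralogs are uncertain where counting could share them. Cyp2s1 fell 3.45-fold in S2 over S1 (2.74 to 4.38).

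Of 15 measured receptors, coregulators and the carrier Fabp5, 0 were higher and 3 lower in S1 over S0 (median log2 ratio -0.69), 3 higher and 0 lower in S2 over S1 (0.56), and 0 were called in S3 over S2 (-0.06). Rxra, the partner receptor, fell 3.72-fold in S1 over S0 (3.49 to 3.96), and the coactivators Crebbp and Ncoa3 fell 2.6-fold (2.44 to 2.78) and 2.44-fold (2.31 to 2.58). Rarg rose 2.57-fold in S2 over S1 (2.24 to 2.94) and Crebbp 2.43-fold (2.27 to 2.6), and with library totals only Rarb of the 3 was still higher. Fabp5, which carries retinoic acid to another receptor, had 165, 102, 55.8 and 70.8 CPM. Of 26 measured target genes, a list that shares Rarb, Stra6, Nrip1, Cyp26c1 and Adh7 among its genes with the others, 1 was higher and 3 lower in S1 over S0 (median 0.29), 8 higher and 2 lower in S2 over S1 (1.14), and 0 higher and 1 lower in S3 over S2 (-0.19). The 2 lower in that step were Ret and Gbx2, and Gbx2 reached 1 CPM in S1 alone, so its direction was fixed. The 8 higher were Rarb and Hoxa2, Hoxa3, Hoxa4, Hoxa5, Hoxb2, Hoxb3 and Hoxb4. Hoxa5 rose 7.36-fold in S2 over S1 (6.26 to 8.69) and fell 2.58-fold in S3 over S2 (2.3 to 2.9), and Hoxa4 rose 8.77-fold in S2 over S1 (5.39 to 15.1). Tgm2, a transglutaminase, fell 3.37-fold in S1 over S0 (3.22 to 3.52), Hoxb2 fell 5.13-fold (2.23 to 13.7), and Adh7, with 1 read in S0, rose 17.5-fold (2.78 to 726). With library totals, nuclear protein-coding totals or a 99% interval, 1 target was lower in S1 over S0 in place of 3, and Hoxb2 was not among the calls with library totals. With a 99% interval 0 were higher.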

How the data were processed

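Total RNA of 4 stages of mouse hepatocyte culture was sequenced, 1 library per stage. Trizol extraction and a stranded library kit are stated per the labels' protocols. The submitters' processing notes name the build mm9 and the tool bcl2fastq. For the aligner, counter, annotation and use of strand, the sources used here give nothing. Per the file headers, the authors deposited read counts per gene and RPKM values per gene. For genes with at least 200 reads, deposited counts over RPKM differed between libraries by 1 factor each, so both tables rest on the same reads.

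From the counts, CPM were computed with TMM factors over all 4 libraries (edgeR 4.0.16, R 4.3.3). Genes with at least 1 CPM in 1 library were kept (15222). Ratios carry exact 95% Clopper-Pearson intervals on the share of reads (Python 3.11.15, scipy 1.17.1), with a floor of 3 reads per library for 0 reads. The interval code was tested on simulated data. No p-value was computed, since each stage is 1 library. Within each pathway list, the genes named per step were up to 3 called members with the interval bound farthest from no change, and other named list members were chosen after their values were seen. For each member the 3 nearest profiles were named. The members and lists were chosen with earlier results of these data known. The 8 alternatives covered scaling (DESeq2 1.42.0 size factors among them), filter, fold and interval. Promoter windows are from RefSeq (GRCm38.p6) and were matched by symbol, and no coordinates were converted between builds.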

Additional observations from a re-analysis of the deposited data

How the results depend on the processing

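No paired analysis was possible because each stage is 1 library. No library could be left out for the same reason. Of the log2 ratios of the 9 genes over 5 comparisons and 8 alternatives, 322 kept their direction and side of the rule, 9 lost and 8 gained a call, and 3 small ratios of Aldh1a1 changed sign without a call. Many of the 322 were fixed in advance. A filter setting cannot change a ratio or its interval, and a fold or interval setting cannot change a direction. Only the scaling settings could change a direction. Counts of called members moved as follows. With at least 5 CPM in 1 library, which leaves fewer genes tested, 3 were higher in S1 over S0. Beyond 1.5-fold, 2 were higher and 3 lower in S3 over S2 and 1 lower in S2 over S0; beyond 3-fold, 0 were higher in S3 over S2 and 3 in S3 over S0. With library totals, 6 were higher in S1 over S0 and 3 in S2 over S1, since Crabp2 changed sides.

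Counts over all genes moved with the fold asked for and with the filter. Beyond 1.5-fold, 2997 were higher and 3281 lower in S1 over S0, 2248 and 2454 in S2 over S1, 1110 and 512 in S3 over S2, 2500 higher in S2 over S0 and 2494 higher in S3 over S0. Beyond 3-fold, the counts were 1134 and 1067 in S1 over S0, 358 and 835 in S2 over S1, 248 and 48 in S3 over S2, 644 higher in S2 over S0, and 741 higher and 1044 lower in S3 over S0. With at least 5 CPM, 1195 were higher in S1 over S0 and 975 lower in S2 over S1. Library totals moved the median log2 ratio of all genes by 0.17 in S1 over S0 and by -0.19 in S2 over S1. The pathway list counts that moved with scaling are given beside them. A pseudocount of 1, added after the data were seen, kept none of the 3 nearest profiles of Lrat or Crabp2 and 1 each of Aldh1a2, Aldh1a3 and Crabp1. Levels at 10 reads or fewer, as for Crabp1 outside S1, set wide intervals.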
